A study of Mus musculus with 18 samples.

Results

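The desaturases Fads1 and Fads2 and the elongases Elovl1, Elovl2, Elovl3 and Elovl5 were described in the livers of ICR mice, chosen by gene symbol: 6 of the 19057 gene lines in the expression table. Desaturases insert double bonds into fatty acids, and elongases lengthen the chain by adding carbons from malonyl-CoA. In liver, Fads2, Elovl5, Fads1 and Elovl2 act in turn to convert the dietary essential fatty acids into arachidonic acid and docosahexaenoic acid. Elovl1 and Elovl3 work mainly on saturated and monounsaturated chains, Elovl1 being tied to sphingolipid supply and Elovl3 to neutral lipids.

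The data were RPKM values (reads per kilobase of gene, scaled to the reads of the library) from 18 livers in 6 groups of 3, from mice labelled ICR and 10 weeks old, male by the study's methods. Con mice had a regular diet and AOS mice the same diet with alginate oligosaccharide, an oligosaccharide derived from brown seaweed, at 10 mg/kg. HFD mice had a high-fat diet, HFD+AOS mice that diet with the same dose, and Con-FMT and A10-FMT mice that diet together with gut content from control or AOS-dosed donors, given by mouth once a day and followed by a period on the diet alone. Con and HFD mice were given saline. The donor material was small-intestinal content pooled over donor mice, so the recipients of 1 group shared a source, and the study's text does not describe how the AOS and HFD+AOS mice were kept beyond their labels. No genetic change is named for any group, and nothing in the labels says more of the livers of 1 group than that they are separate samples, so p-values measure the spread between these livers.

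All 6 genes passed the filter of at least 1 RPKM in at least 3 livers, with 10507 lines tested. RPKM summed to between 692303 and 806937 per liver, the 10 highest genes took 29.8 to 39.0% of it, and read depth is unknown. The 6 hepatocyte markers summed to at least 39412 RPKM in every liver. Con replicate 3 lay between Con replicates 1 and 2 for 98.0% of the 148 genes in which those differed by at least 1 log2 unit, and AOS replicate 3 likewise for 96.5% of 142 genes. For the 4 remaining groups, with 12 livers, this share was 58.1 to 76.8%, so called changes and pathway list counts that rest on Con or AOS are also given without those 2 livers. In A10-FMT replicate 1 the 6 adipocyte markers summed to 32.3 RPKM, with Adipoq at 4.42 and Cfd at 22.05, against 2.81 and 0.78 in the other A10-FMT livers and at most 0.90 in the other 5 groups.

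The coding stretch around the histidine box, the cluster of histidines needed for catalysis, is shown for each elongase to let the most responsive gene, Elovl3, be set beside its relatives. Each line has 60 coding bases of the GENCODE transcript, with the box in capitals.
Elovl1: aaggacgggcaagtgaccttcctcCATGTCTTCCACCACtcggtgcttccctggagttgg
Elovl2: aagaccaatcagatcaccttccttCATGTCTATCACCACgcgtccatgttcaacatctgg
Elovl5: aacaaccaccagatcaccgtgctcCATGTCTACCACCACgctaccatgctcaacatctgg
Elovl3: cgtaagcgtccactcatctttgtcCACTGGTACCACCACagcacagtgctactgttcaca
Elovl2 and Elovl5, both elongases of polyunsaturated chains, were identical at 49 of the 60 positions. Elovl3 was identical to Elovl1, Elovl2 and Elovl5 at 24, 26 and 30 positions.

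The corresponding stretch of the desaturases is shown because Fads1 and Fads2 had the highest Pearson correlation of the 15 pairs between livers of a group.
Fads1: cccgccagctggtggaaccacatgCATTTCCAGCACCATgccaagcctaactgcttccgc
Fads2: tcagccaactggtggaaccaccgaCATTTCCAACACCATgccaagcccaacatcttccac
These windows were identical at 49 of 60 positions. Fads1 (chr19:10182888-10196877, plus strand) and Fads2 (chr19:10062765-10101746, minus strand) are neighbours 81141 bases apart in GRCm38, while Elovl3 (chr19:46131897-46135694) lies farther along the same chromosome. Elovl1 is at chr4:118428093-118432953, Elovl2 at chr13:41182381-41220405 and Elovl5 at chr9:77917364-77984519. Of the 35-base runs of the 6 genes' transcripts, only those of Fads2 also occurred in another gene, 0.628% of them in Fads3, so shared reads could touch few positions.

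Elovl3 was the gene that changed most. Its level was high on the regular diet without AOS and on the high-fat diet alone, and low in both high-fat groups that had received AOS or gut content from AOS-dosed donors. A test of any difference among the 6 groups called 14.8% of the genes tested, and of the 6 genes it called Elovl3 (adjusted p = 6.56e-06) and Elovl1 (adjusted p = 0.00352). Without Con and AOS replicates 3 these were 0.000159 and 0.0334. Without HFD replicate 1 or A10-FMT replicate 3 the test also called Elovl5 (adjusted p = 0.0453 and 0.00766, and 0.0714 with all livers). Adjusted p-values of changes here are from limma on log2(RPKM + 1), 2-sided, corrected by Benjamini-Hochberg across the tested lines and called under 0.05, and log2 fold changes are on that scale.

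**Figure D1:**
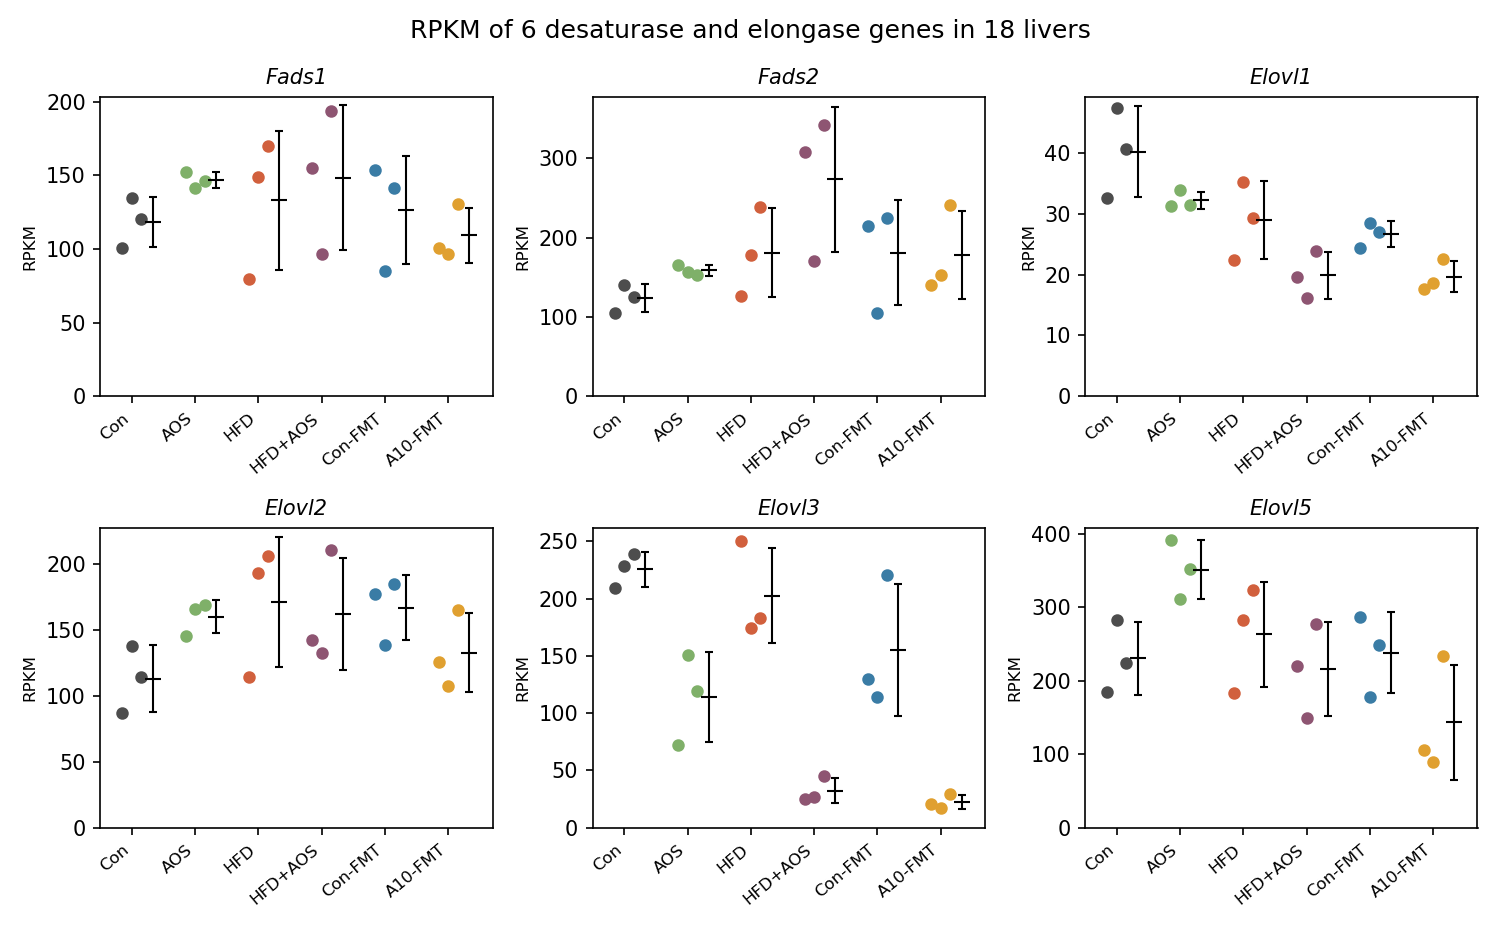
RPKM (vertical axes, linear from 0) of each gene in each of the 18 livers (points, replicates 1 to 3 from left to right) by group, with the group mean and SD (bars, n = 3). Elovl3 lies between 16.83 and 45.27 in the 6 livers of HFD+AOS and A10-FMT and at 72.35 or above in the other 12.

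Fads2, the desaturase of the first and rate-limiting step, was at 104.91, 140.56 and 125.22 RPKM in Con and at 166.05, 156.49 and 153.04 in AOS. On the high-fat diet it was at 126.34, 177.80 and 238.56 in HFD, 308.45, 169.98 and 342.12 in HFD+AOS, 214.13, 104.55 and 224.83 in Con-FMT, and 140.64, 152.51 and 241.61 in A10-FMT. The AOS livers lay above the Con livers without overlap, and every other pair of groups next to each other in mean level overlapped, from 273.5 ± 91.2 (SD, n = 3) in HFD+AOS to 123.6 ± 17.9 in Con. Of groups farther apart in mean level, HFD+AOS lay above AOS and Con without overlap. A10-FMT lay above Con too, by a narrow gap (lowest 140.64 against highest 140.56). In the 4 high-fat groups together against the 2 regular-diet groups together, a comparison that called 12.9% of all genes, Fads2 had a log2 fold change of 0.46 (SE 0.19, 95% confidence interval 0.06 to 0.86, adjusted p = 0.128). Leaving out Con-FMT replicate 2, the liver with the lowest Fads2, took this to 0.55 and an adjusted p of 0.0432. Both transfer groups, Con-FMT and A10-FMT, were on the high-fat side of this comparison, so diet and transfer cannot be told apart in it. A10-FMT differed from HFD in Fads2 by only -0.016 (95% confidence interval -0.68 to 0.64).

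Fads1, the desaturase of the later step to arachidonic acid, was at 100.66, 134.41 and 120.19 RPKM in Con, 152.25, 141.46 and 145.92 in AOS and 79.81, 149.16 and 170.15 in HFD. It was at 155.11, 96.31 and 193.93 in HFD+AOS, 153.39, 84.99 and 141.55 in Con-FMT and 100.47, 96.63 and 130.54 in A10-FMT. The AOS livers lay above those of Con and of A10-FMT without overlap, groups next to each other in mean level overlapped, and the group means ran only from 109.2 ± 18.6 in A10-FMT to 148.5 ± 49.1 in HFD+AOS. The HFD to Con difference was 0.11 on the log2 scale (SE 0.28, 95% confidence interval -0.49 to 0.70, adjusted p = 0.893), and its sign depended on single livers, since leaving out Con replicate 1 gave -0.0058, HFD replicate 2 left out gave -0.012, and HFD replicate 3 left out gave -0.11.

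Set against Fads1 in the same liver, Fads2 stood higher on the high-fat diet. The ratio of Fads2 to Fads1 RPKM was 1.04, 1.05 and 1.04 in Con and 1.09, 1.11 and 1.05 in AOS. In the high-fat groups it was 1.58, 1.19 and 1.40 in HFD, 1.99, 1.76 and 1.76 in HFD+AOS, 1.40, 1.23 and 1.59 in Con-FMT and 1.40, 1.58 and 1.85 in A10-FMT. The 6 regular-diet livers, at 1.04 to 1.11, did not overlap the 12 high-fat livers, at 1.19 to 1.99, and without Con and AOS replicates 3 the remaining 4 still ran from 1.04 to 1.11. This ratio was singled out after its values were seen, among 15 ratios of which 3 did not overlap between the diets, so it is given as a description with no test. The other ratios without overlap were Elovl5 to Fads2 and Elovl5 to Elovl2, both lower on the high-fat diet, with mean log2 ratios of 0.06 against 1.01 and 0.38 against 1.08. How often the ratios of other gene pairs lack overlap between the diets was not counted, so whether these ratios are unusual is not known.

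**Figure D2:**
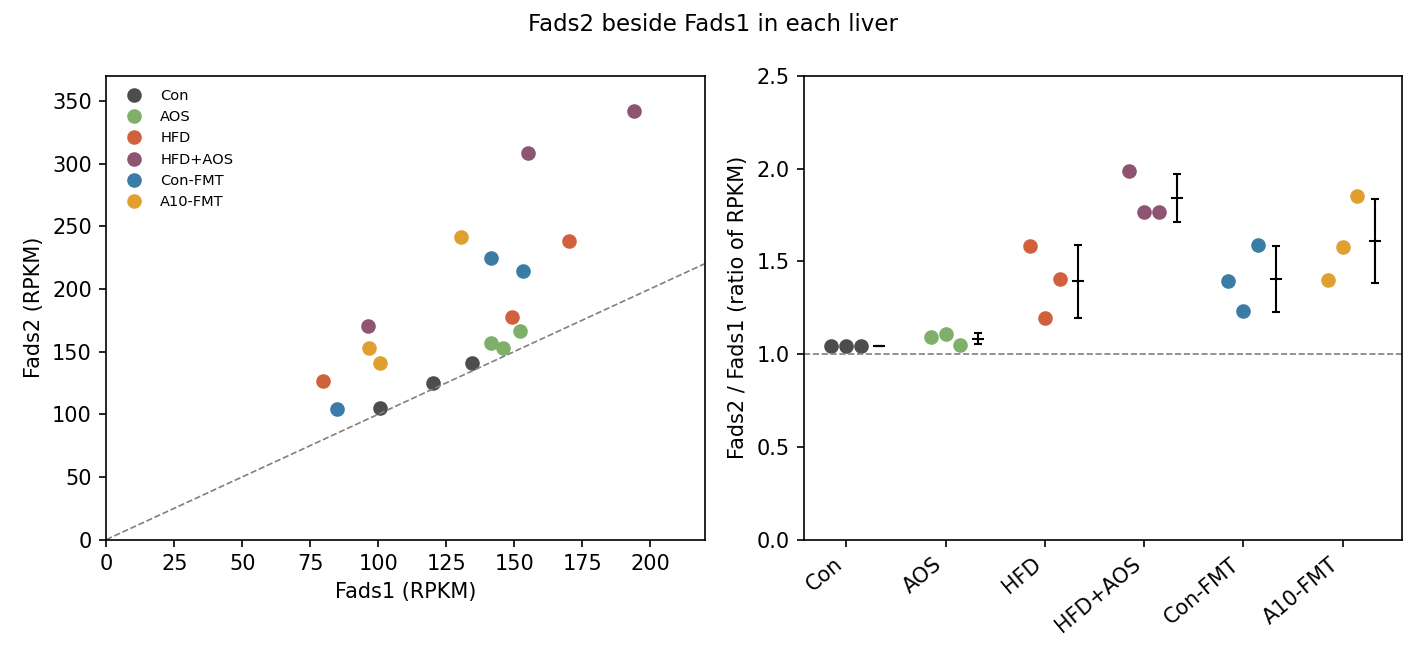
Left, Fads2 against Fads1 RPKM in each of the 18 livers, coloured by group, with the line of equal levels dashed. Right, the ratio of the 2 values per liver (points) with group mean and SD (bars, n = 3): all 12 high-fat livers lie above the 6 regular-diet livers, whose ratios are 1.04 to 1.11.

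Elovl5, which lengthens the products of the first desaturation, was at 184.02, 282.21 and 224.15 RPKM in Con, 391.30, 310.38 and 351.69 in AOS, 183.17, 282.27 and 323.06 in HFD, and 220.19, 148.99 and 277.28 in HFD+AOS. In Con-FMT it was at 286.65, 178.05 and 248.28, and in A10-FMT at 106.01, 89.32 and 233.56. The AOS livers lay above the Con, HFD+AOS, Con-FMT and A10-FMT livers without overlap, and 2 of the A10-FMT livers were the lowest of all 18. A10-FMT against HFD gave a log2 fold change of -0.97 (SE 0.32, adjusted p = 0.0754) and A10-FMT against Con-FMT -0.83 (adjusted p = 0.209), neither called. Both depended on single A10-FMT livers. Without replicate 3 they were -1.38 (adjusted p = 0.00587) and -1.25 (adjusted p = 0.0179). Without replicate 2 they were -0.70 (adjusted p = 0.296) and -0.56 (adjusted p = 0.575). Without HFD replicate 1 the change against HFD was -1.21 (adjusted p = 0.0380). AOS against Con gave 0.62 (SE 0.32, adjusted p = 0.365), and the pooled diet comparison -0.49 (SE 0.20, adjusted p = 0.118, and 0.0213 without A10-FMT replicate 3).

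Elovl2, which lengthens polyunsaturated chains on the route to docosahexaenoic acid, was at 87.23, 137.68 and 114.35 RPKM in Con, 145.75, 165.77 and 168.97 in AOS, and 114.48, 193.38 and 206.07 in HFD. It was at 142.39, 132.78 and 210.99 in HFD+AOS, 177.58, 138.76 and 184.76 in Con-FMT and 125.73, 107.29 and 165.50 in A10-FMT. Only the Con and AOS groups, and the Con and Con-FMT groups, were apart, with Con below both. Con and AOS were also apart for Fads1, Fads2, Elovl5 and Elovl3. How many of all genes tested lack overlap between Con and AOS was not counted, so whether this is unusual is not known. Without Con and AOS replicates 3, each range of these groups rests on 2 livers. HFD against Con gave a log2 fold change of 0.57 (SE 0.23, 95% confidence interval 0.08 to 1.07, adjusted p = 0.255) and AOS against Con 0.52 (SE 0.23, adjusted p = 0.301).

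Elovl1, an elongase of saturated and monounsaturated very long chains, had the lowest mean RPKM of the 6 over all livers, and was at 32.53, 47.42 and 40.69 in Con, 31.19, 33.85 and 31.51 in AOS and 22.43, 35.25 and 29.30 in HFD. The other high-fat groups were at 19.57, 16.07 and 23.91 in HFD+AOS, 24.38, 28.51 and 27.01 in Con-FMT and 17.70, 18.69 and 22.57 in A10-FMT. Every HFD+AOS, Con-FMT and A10-FMT liver lay below every regular-diet liver, while HFD overlapped AOS and Con. Elovl1 fell in the high-fat groups together against the regular-diet groups together (log2 fold change -0.60, SE 0.10, adjusted p = 0.00128), and without Con and AOS replicates 3 the value was -0.60 with an adjusted p of 0.0172. HFD alone against Con gave -0.47 (SE 0.16, adjusted p = 0.200).
Elovl1 was also lower in A10-FMT than in HFD by a log2 fold change of -0.52 (SE 0.16, adjusted p = 0.0654), and HFD+AOS against the same HFD livers gave -0.52 (adjusted p = 0.0608), neither called. Without HFD replicate 1, the HFD liver with the lowest Elovl1, these were -0.69 (adjusted p = 0.0194) and -0.69 (adjusted p = 0.0179), without A10-FMT replicate 3 the first was -0.62 (adjusted p = 0.0389), and without HFD+AOS replicate 3 the second was -0.66 (adjusted p = 0.0415). In the other direction, without HFD replicate 2 the change in A10-FMT against HFD was -0.37 (adjusted p = 0.233).

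Elovl3, an elongase best known from brown fat and, in mouse liver, for higher levels in males and a strong daily rhythm, was at 208.98, 228.17 and 239.45 RPKM in Con and 250.25, 174.28 and 183.36 in HFD. It was at 129.89, 114.18 and 220.82 in Con-FMT and 72.35, 150.77 and 119.25 in AOS. The lowest values were 25.24, 26.48 and 45.27 in HFD+AOS and 20.96, 16.83 and 29.07 in A10-FMT. These 6 livers lay below the other 12 without overlap, and the group means fell from 225.5 ± 15.4 in Con through HFD, Con-FMT and AOS to 32.3 ± 11.2 in HFD+AOS and 22.3 ± 6.23 in A10-FMT, with overlap between all neighbours but AOS and HFD+AOS. The AOS livers also lay below the Con livers and the HFD livers without overlap. Across the 18 livers Elovl3 ranged 14.9-fold, against 2.42- to 4.38-fold for the other 5 genes.
A10-FMT against HFD asks what gut content from AOS-dosed donors did on the high-fat diet, and it called 6.60% of all genes and 1 of the 6. Elovl3 fell by 3.14 on the log2 scale (SE 0.29, adjusted p = 1.54e-05), which is 8.83-fold lower and the 8th smallest p of all genes tested. Against Con-FMT, which also received a transfer, in a comparison that called 1.68% of all genes, Elovl3 fell by 2.72 (SE 0.29, adjusted p = 0.000152), again as the 1 gene of the 6 called. Each of these groups received 1 pool of donor content, so donor treatment and pool cannot be told apart. Without A10-FMT replicate 1, the liver with adipocyte markers, the changes were -3.12 (adjusted p = 0.000214) and -2.69 (adjusted p = 0.00156). Con-FMT against HFD called 0.00952% of all genes and by limma 0 of the 6, also 0 at an unadjusted p under 0.05, with Elovl3 at -0.43 (SE 0.29, adjusted p = 0.828).

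AOS by itself was compared on each diet. HFD+AOS against HFD, which shares the HFD livers with the A10-FMT and Con-FMT comparisons above, called 8.75% of all genes and 1 of the 6: Elovl3 fell by 2.64 on the log2 scale (SE 0.29, adjusted p = 8.70e-05), or 6.24-fold. AOS against Con called 0.133% of all genes and by limma 0 of the 6, with 2 at an unadjusted p under 0.05, Elovl3 at -1.04 (SE 0.29, adjusted p = 0.144) and Elovl2. Without Con and AOS replicates 3 this Elovl3 change was -1.06 (adjusted p = 0.522) on 2 livers a group, and 0 of the 6 were called in AOS or HFD against Con. The difference between the AOS effects on the 2 diets, called for 0.504% of all genes, was -1.61 for Elovl3 (SE 0.41, adjusted p = 0.101), so a difference between diets was not called, and it was -1.90 (adjusted p = 0.0427) without AOS replicate 1, the AOS liver with the lowest Elovl3.
HFD against Con, the effect of diet alone, called 0.381% of all genes and by limma 0 of the 6, with Elovl1 and Elovl2 at an unadjusted p under 0.05 and Elovl3 at -0.17 (SE 0.29, 95% confidence interval -0.79 to 0.45, adjusted p = 0.820). The pooled diet comparison called Elovl1 and Elovl3, with Elovl3 at -1.20 (SE 0.18, adjusted p = 0.000512, and -1.15 with 0.011 without Con and AOS replicates 3), a mean over high-fat groups of which 2 were far below the others. The groups given a transfer stood only on the high-fat side of this pooled comparison. In that comparison 3 of 6 Kupffer cell markers fell (Vsig4, Marco and Clec4f), with the list's sum at 52.8 to 93.7 RPKM per regular-diet liver and 39.8 to 92.2 per high-fat liver, while 2 of 6 stellate cell markers (Colec11 and Reln) and 1 of 6 endothelial markers (Stab2) rose, as did 2 of 6 hepatocyte markers (Cyp2e1 and Apoa1), and their part in the result was not tested. Called or not, 0 of 6 Kupffer, 6 of 6 stellate, 3 of 6 endothelial and 4 of 6 hepatocyte markers had values above 0 there (list medians -0.46, 0.27, 0.014 and 0.21). In A10-FMT and in HFD+AOS against HFD, 1 of 3 tested cholangiocyte markers fell (Sox9), 1 of 6 hepatocyte markers rose (Cyp2e1), and 0 of the Kupffer, stellate and endothelial markers were called by limma in either, with 0 to 1 per list at an unadjusted p under 0.05. By direction alone, 2 of the 3 cholangiocyte markers were above 0 in each comparison (list medians 0.18 and 0.036). Of the 6 hepatocyte markers, 4 were above 0 in each (list medians 0.074 and 0.22). In bulk liver, fewer cells of a type and less RNA per cell cannot be told apart.

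**Figure D3:**
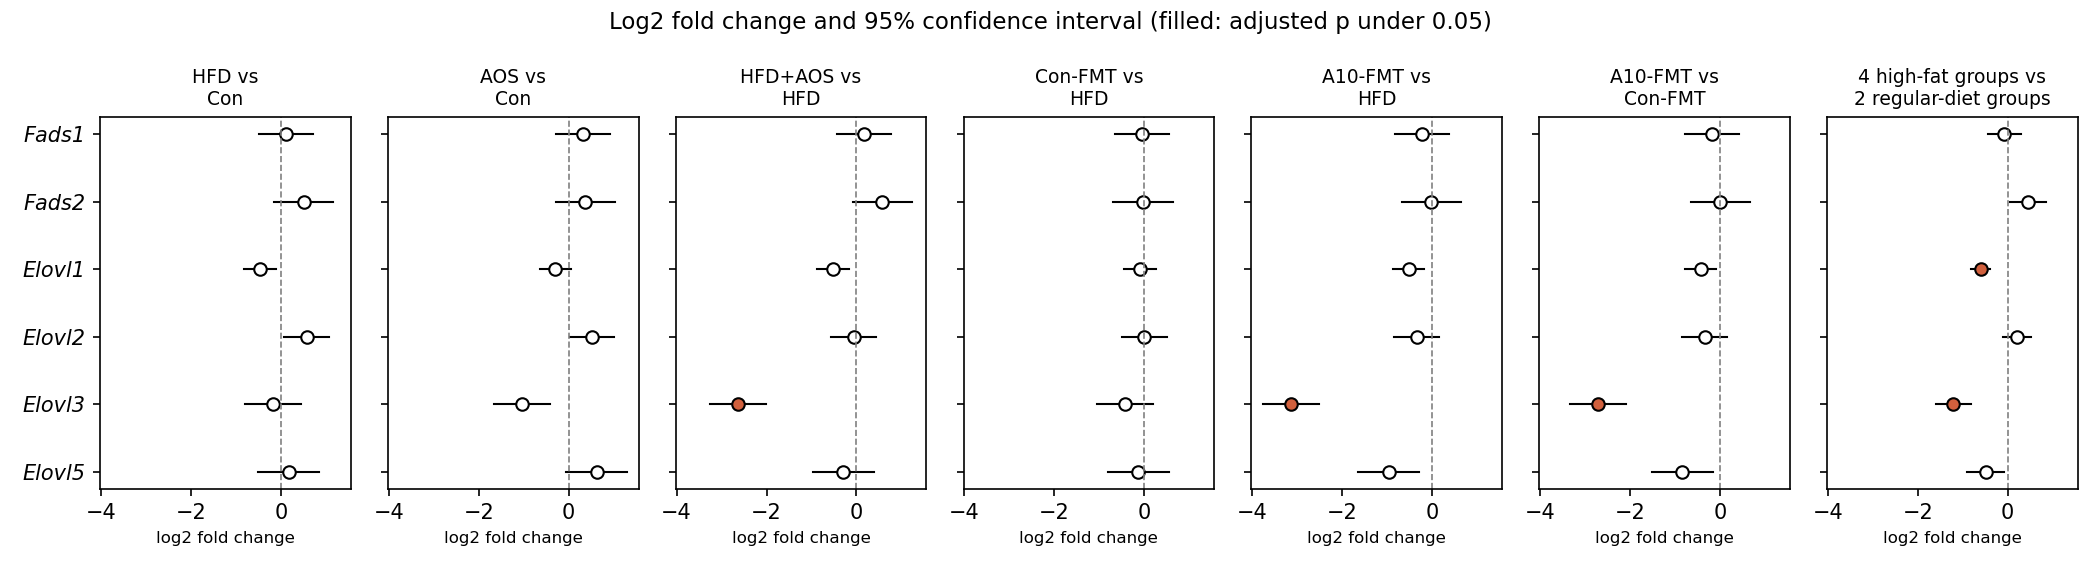
Log2 fold change on the log2(RPKM + 1) scale (horizontal axes) of each gene in 7 comparisons, with the 95% confidence interval (lines) and filled points where the adjusted p was under 0.05. Filled points are Elovl3 in HFD+AOS against HFD, A10-FMT against HFD and A10-FMT against Con-FMT, and Elovl1 and Elovl3 in the pooled diet comparison.

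The circadian clock genes, which drive daily rhythms, were read beside Elovl3 in each comparison, from a list chosen with earlier results of these data known. Of the 17 clock genes tested, 15 were called when A10-FMT was compared with HFD (10 up and 5 down, with a median log2 fold change of 0.85 against -0.03 over all genes tested), 14 in HFD+AOS against HFD, 8 in A10-FMT against Con-FMT and 15 in the pooled diet comparison (10 without Con and AOS replicates 3). In the difference of AOS effects between diets, where Elovl3 was not called, 8 were called (6 without those 2 livers). In the remaining comparisons 0 of 17 were called by limma in HFD against Con, with 3 at an unadjusted p under 0.05, 0 in Con-FMT against HFD, with 10 at an unadjusted p under 0.05, and 1 in AOS against Con.
Dbp, an output gene of the clock, was at 0.56, 0.27 and 0.59 RPKM in HFD and 0.66, 0.58 and 0.68 in Con. It was at 111.84, 88.90 and 97.76 in HFD+AOS and 126.90, 70.84 and 49.17 in A10-FMT, against 16.54, 3.24 and 22.57 in Con-FMT and 3.41, 0.36 and 1.78 in AOS. The 6 livers with the lowest Elovl3 were the 6 with the highest Dbp. Relative to HFD, Dbp rose by a log2 fold change of 5.72 in A10-FMT (adjusted p = 1.23e-05) and 6.09 in HFD+AOS (adjusted p = 6.38e-06), and the difference between diets of its AOS effect was 5.45 (adjusted p = 0.00137, and 0.0251 without Con and AOS replicates 3). Against Con-FMT it rose by 2.68 (adjusted p = 0.0132), a call lost without A10-FMT replicate 1 (adjusted p = 0.0767) or replicate 2 (adjusted p = 0.0532), or when only these 2 groups were fitted (adjusted p = 0.228).
Arntl, a core activator of the clock, was at 12.11, 14.64 and 13.21 RPKM in HFD, 1.18, 1.23 and 1.32 in HFD+AOS and 0.79, 0.69 and 2.41 in A10-FMT. Relative to HFD it fell by 2.71 on the log2 scale in A10-FMT (adjusted p = 6.57e-06) and by 2.67 in HFD+AOS (adjusted p = 6.38e-06), and relative to Con-FMT by 2.20 in A10-FMT (adjusted p = 9.37e-05, and 0.105 when only these 2 groups were fitted). Nr1d1, a clock repressor, was at 21.72, 7.35 and 2.12 in HFD, 70.07, 56.82 and 54.37 in HFD+AOS and 62.50, 15.30 and 35.88 in A10-FMT, the last overlapping HFD (log2 fold change 2.00, adjusted p = 0.0598). This change was 2.72 (adjusted p = 0.0112) without HFD replicate 1 and 1.29 (adjusted p = 0.242) without HFD replicate 3. The sources used here give no hour of sampling, and the part of the clock genes in the Elovl3 result was not tested.
In AOS, where Elovl3 was at 72.35, 150.77 and 119.25 RPKM, the called clock gene was Nr1d2 (log2 fold change 1.39, adjusted p = 0.0221), a call lost without Con replicate 1, Con replicate 3, AOS replicate 1 or AOS replicate 3 (adjusted p = 0.0840 to 0.142), and at an adjusted p of 0.460 without both replicates 3.

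Other male-biased liver genes were read in the same way. Of the 9 tested, 0 were called by limma in A10-FMT against HFD, with 2 at an unadjusted p under 0.05, and 0 in HFD+AOS against HFD, with 0 at that level, while the pooled diet comparison called 3 (Cyp7b1, Cyp4a12b and Cyp4a12a, 1 up and 2 down), and 1 without Con and AOS replicates 3. Hsd3b5, a steroid dehydrogenase, was at 277.75, 229.85 and 166.36 RPKM in HFD and 297.95, 218.57 and 250.01 in A10-FMT. Cyp4a12a, a fatty acid hydroxylase, was at 201.76 to 405.55 in HFD and 269.07 to 283.66 in A10-FMT, and Mup20, a urinary pheromone carrier, at 2791.33 to 2978.97 and 2761.96 to 4453.20, all overlapping. Of 3 female-biased genes tested, 1 fell in A10-FMT against HFD (Cyp3a44) and 0 were called by limma in HFD+AOS against HFD, with 2 at an unadjusted p under 0.05.

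**Figure D4:**
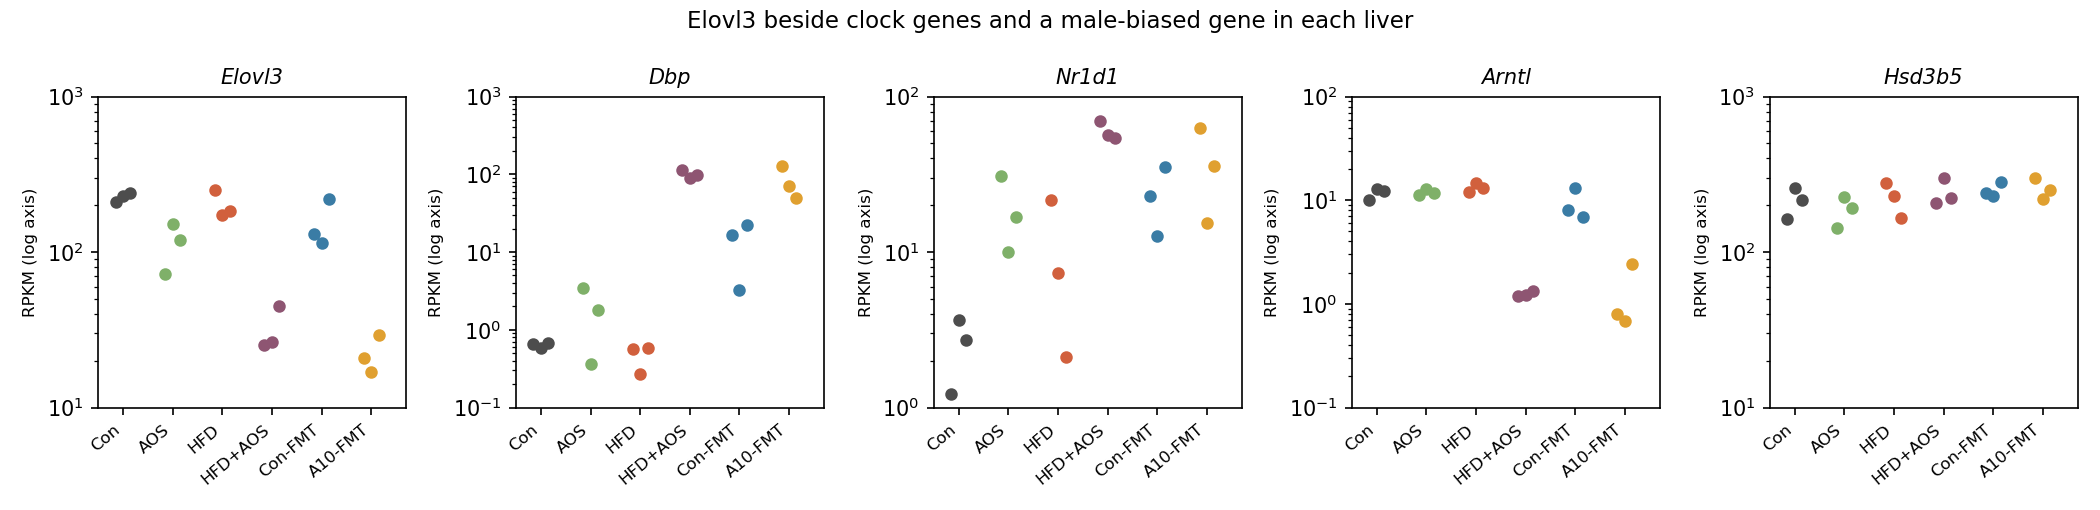
RPKM (log axes, each panel with its own range) of Elovl3, of the clock genes Dbp, Nr1d1 and Arntl and of the male-biased Hsd3b5 in each liver (points, replicates 1 to 3 from left to right) by group. Elovl3 and Arntl are low and Dbp is high in the 6 livers of HFD+AOS and A10-FMT, where Hsd3b5, at 205.8 to 297.95, overlaps the other groups.

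Between livers of 1 group, most pairs among the 5 genes other than Elovl3 rose and fell together. After the group means were subtracted, 8 of the 15 pairs correlated over the 18 livers (permutation of livers within groups, 100000 resamples, adjusted over the 15 pairs). How many pairs of other genes correlate in the same way was not counted, so whether 8 of 15 is unusual is not known. Fads1 and Fads2 had Pearson r = 0.94 (permutation p = 0.00034, adjusted 0.00171) and Spearman rho = 0.92 (permutation p = 0.00041, adjusted 0.00192), with r = 0.94 without the 2 livers farthest from the median of Fads1. Fads1 and Elovl5 had r = 0.85 and rho = 0.93, both with the smallest p that these permutations can give (1e-05, adjusted 0.00015), and r = 0.82 without 2 livers.
The other pairs that passed were Fads1 with Elovl2 (r = 0.88), Fads2 with Elovl5 (0.87), Elovl2 with Elovl5 (0.85), Elovl1 with Elovl2 (0.80), Fads2 with Elovl2 (0.79) and Elovl1 with Elovl5 (0.66), with permutation adjusted p from 0.00171 to 0.0335. Elovl1 with Elovl5 passed by r but not by rho (permutation adjusted p = 0.0673), and without Con and AOS replicates 3 it had a permutation adjusted p of 0.0521 by r, leaving 7 pairs. Fads1 with Elovl1 (r = 0.66, permutation adjusted p = 0.0645) and Fads2 with Elovl1 (r = 0.54, permutation adjusted p = 0.0969) did not pass. Elovl3 had r of 0.22 to 0.41 with the other 5 genes, none passing (permutation adjusted p = 0.148 to 0.487), though without the 2 farthest livers Elovl2 with Elovl3 had r = 0.65 in place of 0.41. Whether the r values of Elovl3 differ from those of the other pairs was not tested. Both values of a pair come from the same library, so anything that differs between whole libraries enters each r.

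**Figure D5:**
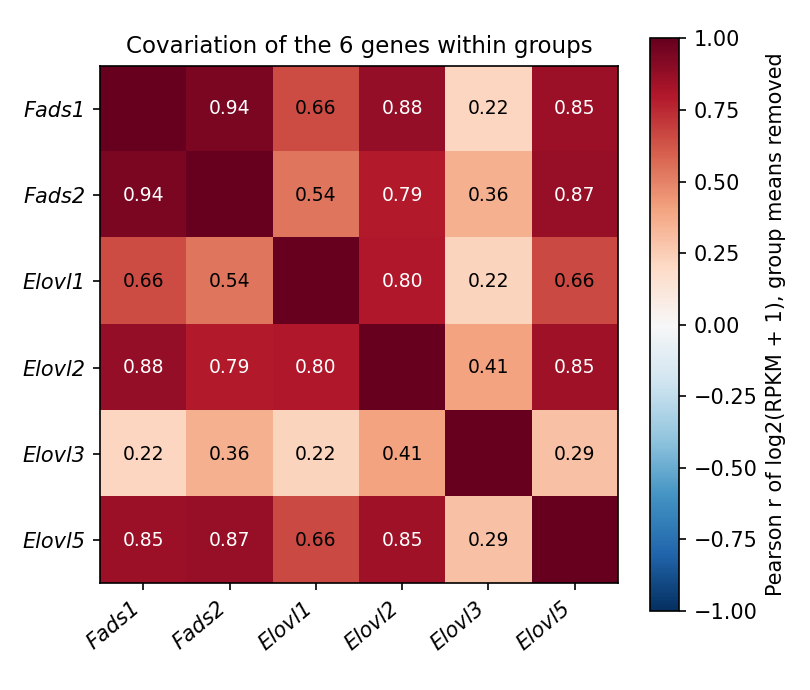
Pearson r (colour, and number in each cell) between each pair of genes over 18 livers, on log2(RPKM + 1) with each group's mean subtracted. The 5 cells of Elovl3 with another gene hold 0.22 to 0.41 and the others 0.54 to 0.94.

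Over all 18 livers with group differences left in, the tested genes most like each member were found by Pearson r, as a description. For Elovl3 these were Dnmt3b, a DNA methyltransferase (r = 0.93), Pitx3, a transcription factor gene (0.93), and Chka, choline kinase (0.93). Pitx3 lies on the opposite strand and overlaps Elovl3 by 10 bases, its values were 0.00 to 1.34 RPKM, and strand was not stated for the counting, so reads of the 2 genes may be confused there. For Elovl5 they were Acsl5, an acyl-CoA synthetase (r = 0.96), Sc5d, of cholesterol synthesis (0.94), and Acly, which makes cytosolic acetyl-CoA (0.92). Elovl1 was most like Med8 (0.93), 12310 bases away on chromosome 4, Pnp (0.92) and Ptpn9 (0.92). Elovl2 was most like Atp6v1h (0.91), Atl3 (0.90) and Cnot6l (0.88), Fads1 like Fbxl5 (0.84), Nqo1 (0.84) and Idh1 (0.84), and Fads2 like Ppt1 (0.85), Swap70 (0.81) and Zadh2 (0.80).

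Partner enzymes were read beside them from lists chosen with earlier results of these data known. Of the 5 other desaturases and elongases tested, Scd1, which makes oleic acid, and Elovl6, which makes stearic acid, fell in the pooled diet comparison. Scd1 was at 676.24 to 2033.32 RPKM in the 6 regular-diet livers and 19.25 to 537.76 in the 12 high-fat livers, without overlap (log2 fold change -3.26, SE 0.58, adjusted p = 0.00188, and 0.0227 without Con and AOS replicates 3). Elovl6 changed by -0.82 (adjusted p = 0.0224), which was lost without Con replicate 3 (0.0533), AOS replicate 1 (0.0677), AOS replicate 3 (0.0518) or both replicates 3 (0.106). In A10-FMT against HFD 0 of these 5 were called by limma, and 0 at an unadjusted p under 0.05.
Elongation needs further enzymes of the same cycle, of which 5 were tested. Hacd3, an acyl-CoA dehydratase, rose in the pooled diet comparison (0.29, adjusted p = 0.00118, and 0.0142 without Con and AOS replicates 3). It was the only 1 of the 5 above 0 there, and the list median was -0.15. By limma 4 of the 5 had an unadjusted p under 0.05. Of the 5 genes of electron supply to desaturases, Cyb5b fell there (-0.38, adjusted p = 0.00676, and 0.0556 without Con and AOS replicates 3) and Cyb5r4 in A10-FMT against HFD. Of 5 acyl-CoA synthetases 1 rose and 1 fell in the pooled diet comparison, and of 5 genes of polyunsaturated acyl transfer 3 rose. Of 15 genes of peroxisomal chain shortening, by which the last step to docosahexaenoic acid is done, 5 rose there and 0 fell. Without Con and AOS replicates 3 these pooled counts were 1 synthetase, 1 acyl transfer gene and 0 peroxisomal genes. Relative to HFD, A10-FMT had by limma 0 called synthetases (2 at an unadjusted p under 0.05), 0 called acyl transfer genes (1 at that level) and 2 called peroxisomal genes, Acaa1a up and Crot down.

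Among 16 regulators of these genes, 5 were called in A10-FMT against HFD. Srebf1, the lipogenic activator, rose by a log2 fold change of 0.94 (adjusted p = 0.0119) and Ppara, the fatty acid sensor, by 0.59 (adjusted p = 0.0223), while Insig2, which retains SREBPs, fell by 1.54 (adjusted p = 0.0106) and Srebf2, the sterol regulator, by 0.64 (adjusted p = 0.0129). Faf2 was the fifth, and fell. Without A10-FMT replicate 2 these 4 values had adjusted p of 0.0563 to 0.0651, without A10-FMT replicate 1 Srebf2, Insig2 and Ppara had 0.0601 to 0.0740, and without HFD replicates 2 or 3 Ppara had 0.0552 or 0.104. With only these 2 groups fitted Srebf2, Insig2 and Ppara had 0.127, 0.160 and 0.0786. In HFD+AOS against HFD 5 regulators were called, 2 higher and 3 lower, and in the pooled diet comparison 5, 3 higher and 2 lower, Ppara among them (0.59, adjusted p = 0.00051, and 0.0075 without Con and AOS replicates 3). Insig2 lost its call in 8 of 12 alternatives in HFD+AOS against HFD (adjusted p up to 0.1004) and in 8 of 23 in the pooled comparison (up to 0.134), and Srebf1 in 1 of 12 (0.0560) and 4 of 23 (up to 0.113). Without Con and AOS replicates 3 the pooled comparison called 2 regulators.
Of 10 lipogenic SREBP1 targets, 5 fell in the pooled diet comparison (Acacb, Acss2, Me1, Fasn and Pnpla3), with a list median of -0.73 against 0.0051 over all genes tested, and 3 were called without Con and AOS replicates 3. In A10-FMT against HFD 1 of the 10 was called, Thrsp, a thyroid-hormone-responsive lipogenic gene, which rose by 2.64 (adjusted p = 0.00487) and in HFD+AOS against HFD by 2.39 (adjusted p = 0.00826). Called or not, 3 of the 10 were above 0 in A10-FMT against HFD and 8 in HFD+AOS against HFD (list medians -0.24 and 0.17). Of 14 SREBP2 targets 1 fell in A10-FMT against HFD (Idi1) and all 14 had values below 0, with a median log2 fold change of -0.70 against the same -0.03. Of 14 PPARalpha targets 7 rose and 1 fell in the pooled diet comparison, with 6 called without those 2 livers, and in A10-FMT against HFD 4 fell (Fgf21, Cyp4a14, Cyp4a10 and Pdk4).

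Upstream sequence was available for 4 of the 6 genes, as the 250 bases before the RefSeq transcript start in GRCm38.p6. Motifs were searched on both strands: CCAAT (the NF-Y box), CACGTG (the E-box), TCACNCCAC (a sterol regulatory element), TTATGTAA (the D-box) and TAGGTCA (the core of the ROR element). Elovl5 and Elovl1 are shown because they held matches, in capitals.
Elovl5, chr9:77917115-77917364, plus strand: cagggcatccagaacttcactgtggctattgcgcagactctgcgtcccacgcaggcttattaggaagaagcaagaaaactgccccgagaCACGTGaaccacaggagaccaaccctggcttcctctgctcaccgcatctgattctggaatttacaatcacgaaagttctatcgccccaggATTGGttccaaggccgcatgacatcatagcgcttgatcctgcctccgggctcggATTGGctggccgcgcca
Elovl1, chr4:118427843-118428092, plus strand: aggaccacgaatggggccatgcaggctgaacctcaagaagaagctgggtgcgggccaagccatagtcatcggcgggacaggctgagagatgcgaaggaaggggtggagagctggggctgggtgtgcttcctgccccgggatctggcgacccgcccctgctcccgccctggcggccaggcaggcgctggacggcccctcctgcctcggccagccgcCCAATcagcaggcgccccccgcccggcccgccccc
Elovl5 held CACGTG 161 bases and CCAAT, on the other strand as ATTGG, 71 and 17 bases before the start. Elovl1 held CCAAT 35 bases before it. Of 27025 such windows, 34.5% held CCAAT, 6.05% CACGTG, 1.04% TCACNCCAC, 0.862% TTATGTAA and 2.27% TAGGTCA. These letters were not in the windows of Fads2, whose RefSeq start is 243 bases from the GENCODE one, or Elovl2, and Fads1 and Elovl3 had no entry.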

How the data were processed

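Liver RNA was sequenced on an Illumina HiSeq by the authors, who deposited RPKM values for 19057 gene lines in 18 livers, rounded to 2 decimals and not pooled. The study's methods name SOAPaligner, whereas the submitters' processing notes name Bowtie 0.12.2 and mm10. The annotation and strand setting are not given in the sources used here, and no read counts were used, so depth is unknown and no counting interval is given. Replicates follow the sample titles.

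Genes with at least 1 RPKM in at least 3 livers were tested on log2(RPKM + 1) with limma 3.58.1 in R 4.3.3 (1 mean per group over all 18 livers, eBayes with trend, Benjamini-Hochberg). The study's own test needs read counts and was not used. The fit and the permutation of correlations were tested on simulated data. Alternatives were the pseudocount, the filter, equal library medians, a replicate block, only the groups compared, a fold minimum of 1 log2 unit, and leaving out livers. Text names the 6 genes in each comparison, list genes that were called or had the smallest p, the 3 genes most correlated with each member, and Nr1d1, Dbp, Arntl, Hsd3b5, Cyp4a12a and Mup20 beside Elovl3. The members and lists were chosen with earlier results of these data known. Gene places and coding sequence are from GENCODE and upstream windows from RefSeq.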

Additional observations from a re-analysis of the deposited data

How the results depend on the processing

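The calls of Elovl3 in A10-FMT against HFD (adjusted p = 1.27e-05 to 0.00163 over 12 alternatives), A10-FMT against Con-FMT (8.86e-05 to 0.0436) and HFD+AOS against HFD (7.02e-05 to 0.00175) held in every alternative run, as did those of Elovl1 (0.000327 to 0.0172 over 23) and Elovl3 (0.00029 to 0.011) in the pooled diet comparison, save that a fold minimum of 1 log2 unit left 1 of these 2, Elovl3. With library medians set equal, 2 of the 6 genes were called in A10-FMT against HFD and 2 in HFD+AOS against HFD, Elovl1 being added to Elovl3 in each, and the log2 fold change of Fads2 in A10-FMT against HFD was 0.023 in place of -0.016. Leaving out each liver in turn gave 1 to 3 of the 6 in A10-FMT against HFD, 1 to 2 in HFD+AOS against HFD, 1 to 2 in A10-FMT against Con-FMT, 2 to 3 in the pooled diet comparison and 0 to 1 in the difference of AOS effects. It moved Fads1 in HFD against Con between -0.11 and 0.43 and Fads2 in A10-FMT against HFD between -0.26 and 0.21, with signs opposite to the values with all livers at -0.0058 and -0.012 for Fads1 (without Con replicate 1 or HFD replicate 2) and at 0.13 and 0.075 for Fads2 (without A10-FMT replicate 1 or 2), besides the extremes. Over all 48 changes of the 6 genes, 634 of 678 alternative values kept direction and call, 14 gained a call, 0 lost one and 30 changed sign, the last in 13 changes none of which was called.

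Replicate numbers did not pair the livers, with correlations of deviations between same-numbered livers of -0.177 to 0.225 and 0 of 6 comparisons with all above 0.1. With the replicate block, 2 of the 6 genes were called in A10-FMT against HFD and 2 in HFD+AOS against HFD (Elovl1 and Elovl3), and it moved the count over all genes in HFD against Con from 40 to 5.

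Counts over all genes moved more. Without Con and AOS replicates 3 they were 0 in place of 40 in HFD against Con, 395 for 693 in A10-FMT against HFD, 82 for 177 in A10-FMT against Con-FMT, 0 for 14 in AOS against Con, 495 for 919 in HFD+AOS against HFD, 466 for 1355 in the pooled diet comparison and 15 for 53 in the difference of AOS effects. Fitting only the groups compared gave 2, 78, 4, 41, 435 and 137 (no such fit for the pooled comparison), and the fold minimum 8, 89, 33, 6, 84, 69 and 35. Without the filter 26 and 100 were called in HFD against Con and A10-FMT against Con-FMT, and equal medians gave 1070 in A10-FMT against HFD, 603 up and 467 down in place of 275 and 418. They gave 24 up and 23 down for 31 and 9 in HFD against Con, 108 and 135 for 48 and 129 in A10-FMT against Con-FMT, 5 and 5 for 10 and 4 in AOS against Con, and 31 and 34 for 15 and 38 in the difference of AOS effects. Leaving out each liver gave 0 to 178, 269 to 1217, 51 to 563, 0 to 132, 321 to 1281, 851 to 1410 and 29 to 186 in the order above, and 1 to 13 for 1 in Con-FMT against HFD. Counts of called genes per list stayed within 1.5 times in 1354 alternatives, moved further in 86, fell to 0 in 94 and rose from 0 in 39. The causes were not tested. Unknown depth limits what can be said of low values, though the 6 genes were all far above the filter.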
